A study of Mus musculus with 7 samples.

Results

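The core circadian clock of the liver was examined through the RNA of 10 genes: the activators Arntl, Clock and Npas2, and the repressors Per1, Per2, Per3, Cry1, Cry2, Nr1d1 and Nr1d2. They were chosen by name, and all 10 were found among the 23366 gene rows of the tables. RNA was sequenced from livers of C57BL/6 mice, a common inbred laboratory strain, at 21 months of age (3 libraries) and at 3 months of age (4 libraries). No genotype or treatment other than age is named for either group. The labels do not give the sex, the hour of sampling, the light schedule or the feeding state. Nor do they say that each library is a different mouse, and the p-values therefore describe only the spread between libraries, which may be technical.

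The clock is a feedback loop. ARNTL (also called BMAL1) pairs with CLOCK or its relative NPAS2 and binds E-box sequences, which switches on the PER, CRY and NR1D genes. PER and CRY proteins then block that pair, while NR1D1 and NR1D2 (REV-ERB alpha and beta) bind ROR elements and repress Arntl, Npas2, Clock and Cry1. In mouse liver under a light-dark cycle, Arntl and Npas2 RNA peak together around the end of the night, Nr1d1 around the middle of the light phase, the Per RNAs later towards dusk and Cry1 in the night. Because these RNAs swing with the hour, the hour of sampling is part of what any level means. Age and an unrecorded difference in hour cannot be told apart in this design.

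Promoter sequence is shown for the 3 genes that passed the test of age. It is also shown for Cry1 and Per3, as examples of windows that hold a pair of matches near each other. Each is the 250 bases before an annotated start, read from RefSeq on build GRCm38.p6, a later build than the mm9 named by the submitters. Lower case is plain sequence, and capitals mark the motifs searched on both strands: the E-box CACGTG, the related E′-box CACGTT, the D-box TTATGTAA or TTACGTAA, and the nuclear receptor hexamer AGGTCA. Nr1d1 lies on the minus strand (chr11:98775378-98775627), as do Nr1d2 (chr14:18239107-18239356), Cry1 (chr10:85185055-85185304) and Per3 (chr4:151044666-151044915), and Npas2 lies on the plus strand (chr1:39194022-39194271).
Nr1d1: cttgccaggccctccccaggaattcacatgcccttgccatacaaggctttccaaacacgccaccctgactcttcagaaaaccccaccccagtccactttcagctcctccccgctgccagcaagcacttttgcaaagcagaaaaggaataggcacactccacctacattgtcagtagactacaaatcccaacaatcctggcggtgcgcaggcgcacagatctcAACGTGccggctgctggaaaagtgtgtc
Nr1d2: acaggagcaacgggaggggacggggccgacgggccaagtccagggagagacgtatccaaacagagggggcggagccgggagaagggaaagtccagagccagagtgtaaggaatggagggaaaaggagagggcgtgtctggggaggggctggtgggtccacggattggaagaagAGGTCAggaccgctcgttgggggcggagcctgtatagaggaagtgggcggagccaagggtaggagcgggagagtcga
Npas2: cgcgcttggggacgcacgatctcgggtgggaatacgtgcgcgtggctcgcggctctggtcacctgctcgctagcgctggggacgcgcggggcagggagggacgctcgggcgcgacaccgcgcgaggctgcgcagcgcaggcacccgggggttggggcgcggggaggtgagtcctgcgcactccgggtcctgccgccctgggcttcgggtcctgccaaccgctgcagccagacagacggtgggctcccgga
Cry1: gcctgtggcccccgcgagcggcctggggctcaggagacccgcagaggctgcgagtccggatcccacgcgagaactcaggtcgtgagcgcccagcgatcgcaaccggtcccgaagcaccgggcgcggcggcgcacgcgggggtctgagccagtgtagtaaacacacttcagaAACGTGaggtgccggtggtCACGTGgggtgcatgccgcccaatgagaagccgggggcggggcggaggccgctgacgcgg
Per3: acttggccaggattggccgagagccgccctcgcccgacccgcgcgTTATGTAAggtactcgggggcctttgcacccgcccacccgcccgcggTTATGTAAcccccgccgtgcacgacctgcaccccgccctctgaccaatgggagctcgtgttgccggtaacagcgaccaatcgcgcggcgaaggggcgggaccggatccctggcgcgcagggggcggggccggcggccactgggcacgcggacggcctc

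The Nr1d1 window holds an E′-box starting 28 bases before the start. Cry1 holds an E-box at 60 bases and an E′-box at 79 bases, side by side. Per3 holds a pair of D-boxes at 205 and 158 bases. A Per1 window, not printed, holds an E-box at 166 bases and a receptor hexamer at 137 bases. Nr1d2 holds a receptor hexamer at 77 bases, and Npas2 holds none of these motifs. RefSeq windows were found for 9 of the 10 genes, 13 windows in all since Arntl, Clock and Per1 have several starts, and Per2 is named only. Counting a gene once, 2 of these 9 genes hold an E-box (Cry1 and Per1), 3 an E′-box (Cry1, Cry2 and Nr1d1), 1 a D-box (Per3), 3 a receptor hexamer (Clock, Nr1d2 and Per1) and 0 the longer ROR element. Among all 32851 RefSeq windows of the same length, 6.02% hold an E-box, 3.85% an E′-box, 0.931% a D-box, 14% a receptor hexamer and 0.332% the ROR element. These shares are per window, whereas a gene with several windows has more chances to hold a motif. A match is a description of these letters, and no motif overlapped another in the printed windows.

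The libraries held 6882935 to 10458583 expected counts at 21 months and 4724687 to 11143125 at 3 months. The ribosomal RNA row Rn45s took 20.0% to 22.4% of them at 21 months and 18.7% to 25.6% at 3 months. The 7 hepatocyte genes measured were abundant at both ages and summed to 71457 to 76517 CPM at 21 months and 54173 to 68517 CPM at 3 months, where CPM is counts per 1e+06 scaled counts. Those sums did not overlap, and of these genes Alb was called higher and Apoa1 lower. Gene by gene, 1 was higher and 3 were lower at 21 months without overlap, beside 11.3% and 12.8% of all genes tested. The median log2 fold change of the list, 21 months minus 3 months, was -0.10. The effective length of a gene fell short of its full length by a median of 35.4, 30.9 and 21.4 bases in 21-month replicates 1, 2 and 3, against 34.4 to 38.8 bases in the 3-month libraries. The labels do not say what sets this shortfall, and 21-month replicate 3 stands apart by it. Markers of other cells ranged widely within each age. The 7 macrophage markers summed to 114 to 356 CPM at 21 months and 194 to 326 CPM at 3 months, and the 6 endothelial markers to 86.5 to 192 CPM and 121 to 208 CPM at the same ages. The 6 B and plasma cell markers summed to 8.47 to 39.4 CPM at 21 months and 2.92 to 3.64 CPM at 3 months, without overlap, and Igj, the antibody joining chain, was the member called higher. The 6 stellate markers summed to 78.9 to 157 CPM at 21 months and 89.9 to 145 CPM at 3 months, and the 5 bile duct markers to 28.9 to 31.6 CPM and 31.8 to 46.3 CPM. The bile duct sums did not overlap either. Sox9 among the bile duct markers and Lyve1 among the endothelial markers were called lower. Markers of T and NK cells, neutrophils and fat cells each summed to at most 7.26 CPM in any library, and 5 of 7, 3 of 4 and 4 of 5 of them were at 0 in at least 1 library. Their part in the results below was not tested. In whole liver, fewer cells of a type and less RNA per cell cannot be told apart.

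All 10 clock genes passed the filter on low counts and were tested with edgeR's quasi-likelihood test, adjusted by Benjamini-Hochberg over all 11251 genes. Nr1d1, Nr1d2 and Npas2 were higher at 21 months, 3 of the 10, and 0 were lower. The same test called 5.47% of all genes higher and 5.86% lower, or 11.3% together. The ages did not overlap for 4 of the 10, all higher at 21 months, against 11.3% of all genes higher without overlap and 12.8% lower without overlap. By unadjusted p alone, 2 more passed 0.05, Per3 and Cry1. Of all 11251 genes, 1429 were higher at 21 months with an unadjusted p under 0.05, called genes included. The median log2 fold change of the 10 genes was 0.04, against -0.0015 over all genes tested. A log2 fold change here is 21 months minus 3 months.

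**Figure D1:**
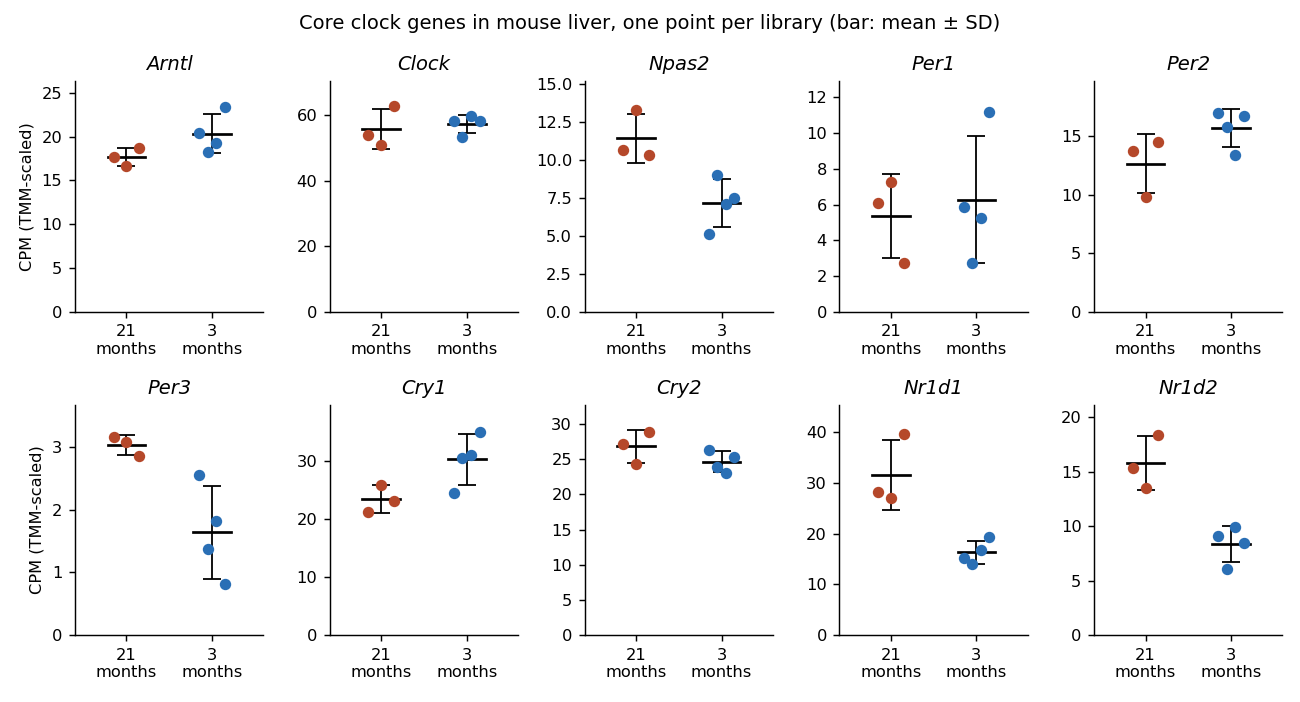
CPM of each of the 10 clock genes (y axes, from 0) in the 3 libraries at 21 months and the 4 at 3 months, with the mean and SD of each age. The ages are apart for Npas2, Per3, Nr1d1 and Nr1d2, and share a range for the other 6.

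The REV-ERB repressors changed most firmly. Nr1d1, the nuclear receptor that represses Arntl, stood at 28.2, 27.0 and 39.5 CPM in 21-month replicates 1, 2 and 3, against 15.1, 14.0, 16.8 and 19.3 CPM in 3-month replicates 1 to 4. Every 21-month library lay above every 3-month library, and 21-month replicate 3 was the highest. The group means were 31.5 ± 6.91 CPM at 21 months (SD, n = 3) and 16.3 ± 2.31 CPM at 3 months (SD, n = 4), a 1.95-fold difference (log2 fold change 0.96 ± 0.15 SE, edgeR adjusted p = 0.00149). Its counts summed to 811 over the 21-month libraries and 448 over the 3-month libraries.

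Nr1d2, the sister receptor that shares its DNA site, differed by nearly the same amount. Its levels were 15.4, 13.5 and 18.4 CPM in 21-month replicates 1 to 3 and 9.12, 6.09, 9.91 and 8.44 CPM in 3-month replicates 1 to 4. The ages did not overlap, and 21-month replicate 3 was again the highest. The difference was 1.93-fold (log2 fold change 0.95 ± 0.18 SE, edgeR adjusted p = 0.0042). On the per-length TPM scale (transcripts per 1e+06), Nr1d1 was 3.26, 3.54 and 3.81 times as abundant as Nr1d2 in the 21-month libraries and 2.96, 4.09, 3.02 and 4.08 times in the 3-month libraries. The mean ratio was 3.54 at either age, so the proportion of the pair did not separate the ages. Summed, the pair reached 32.6 ± 7.30 TPM at 21 months and 15.5 ± 1.78 TPM at 3 months.

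The smaller shortfall of effective length in 21-month replicate 3 goes with its higher Nr1d1 and Nr1d2. Without that library the differences remained past the threshold, with log2 fold changes of 0.79 for Nr1d1 and 0.84 for Nr1d2 (edgeR adjusted p = 0.0119 and 0.0322). With the shortfall as a covariate in the fit of all 7 libraries, the log2 fold changes were 0.64 and 0.74 and neither passed (edgeR adjusted p = 0.0511 and 0.0902). Nr1d1 also overlaps the thyroid hormone receptor gene Thra in the RefSeq gene table, on the opposite strand. The libraries kept strand, but no source used here says whether the counting used it, so reads of the overlap cannot be assigned with certainty. The same holds for Per3, which overlaps Uts2 there, and Cry2, which overlaps D930015M05Rik. Thra, chosen after its values were seen, had 12.6, 16.3 and 14.2 CPM in the 21-month libraries and 11.5 to 13.0 CPM in the 3-month libraries (log2 fold change 0.20, edgeR adjusted p = 0.392).

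Of the 3 activators, only Npas2 passed, and it rose. Npas2, the CLOCK relative that can replace CLOCK as partner of ARNTL, had 10.6, 13.3 and 10.3 CPM in 21-month replicates 1 to 3, against 5.11, 9.01, 7.08 and 7.47 CPM in 3-month replicates 1 to 4. The ages did not overlap, though 3-month replicate 2 came within reach of the 21-month values and 3-month replicate 1 was the lowest. The difference was 1.55-fold (log2 fold change 0.63 ± 0.19 SE, edgeR adjusted p = 0.0437). This call sat near the threshold: it was lost in 11 of 18 alternatives, among them DESeq2 (adjusted p = 0.0583), limma voom (adjusted p = 0.0622) and the fits that left out 3-month replicate 1, 3 or 4, or 21-month replicate 2 or 3, in which edgeR's adjusted p was 0.0754 to 0.119. Its log2 fold change stayed between 0.51 and 0.80 in all 18.

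Arntl, the activator the clock cannot do without, did not pass. It had 17.6, 16.6 and 18.7 CPM in 21-month replicates 1 to 3 and 20.4, 18.3, 19.2 and 23.4 CPM in 3-month replicates 1 to 4. The ranges met, with the highest 21-month library above the lowest 3-month library. The log2 fold change was -0.20 ± 0.13 SE, with a 95% interval of -0.47 to 0.07 (edgeR adjusted p = 0.354). Clock, the usual partner of ARNTL, had the fold change nearest to 0 of the 10. It had 54.0, 50.8 and 62.7 CPM at 21 months against 58.2, 53.4, 59.7 and 58.3 CPM at 3 months. Its 95% interval ran from -0.26 to 0.18 (log2 fold change -0.04 ± 0.10 SE, edgeR adjusted p = 0.872). The sign of that small difference turned on the TPM scale (log2 fold change 0.08 with a pseudocount of 0.5), but all genes tested had a median of 0.11 on that scale.

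The makeup of the ARNTL partners was compared within each library on the TPM scale. Npas2 made up 26.1%, 31.9% and 22.9% of Npas2 plus Clock in 21-month replicates 1 to 3, and 13.6%, 23.3%, 17.6% and 18.7% in 3-month replicates 1 to 4. The 21-month shares were mostly higher, but 21-month replicate 3 fell below 3-month replicate 2, so the ages overlapped. Between same-numbered libraries the share was higher at 21 months in 3 of 3 pairs. The labels do not say what a replicate number marks, so this matching may be arbitrary, and it leaves out 3-month replicate 4. Any matching that did not set 21-month replicate 3 against 3-month replicate 2 would give the same. The activators summed to 34.3 ± 2.85 TPM at 21 months and 31.6 ± 1.65 TPM at 3 months, also with overlap. On that scale all genes tested had a median log2 fold change of 0.11 (pseudocount 0.5).

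The Cry repressors, which block the ARNTL complex directly, did not pass. Cry1 had 21.3, 26.0 and 23.2 CPM in 21-month replicates 1 to 3, against 24.5, 30.6, 31.2 and 35.1 CPM in 3-month replicates 1 to 4. Only 3-month replicate 1 fell within the 21-month range. The log2 fold change was -0.37 ± 0.13 SE (edgeR adjusted p = 0.0797), and the difference passed without 3-month replicate 1 (log2 fold change -0.46, edgeR adjusted p = 0.0415). Cry2 had 27.2, 24.3 and 28.9 CPM at 21 months and 26.3, 23.9, 23.1 and 25.3 CPM at 3 months. Those ranges overlapped (log2 fold change 0.12 ± 0.11 SE, edgeR adjusted p = 0.527). The Cry1 to Cry2 TPM ratio was 1.04, 1.42 and 1.04 in the 21-month libraries and 1.24, 1.63, 1.68 and 1.84 in the 3-month libraries. The ages again overlapped. In 3 of 3 same-numbered pairs the ratio was lower at 21 months, though the matching by number may be arbitrary. Any matching that did not set 21-month replicate 2 against 3-month replicate 1 would give the same.

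None of the Per repressors passed, and their values point in different directions. Per3, an accessory member of the family, was the least abundant clock gene, at 3.15, 3.07 and 2.85 CPM in 21-month replicates 1 to 3 and 2.55, 1.37, 1.82 and 0.811 CPM in 3-month replicates 1 to 4. The ages did not overlap, but the 3-month values rest on 14, 16, 9 and 5 counts, against 32, 22 and 24 counts at 21 months. The log2 fold change was 0.93 ± 0.34 SE, close to that of Nr1d1 with a larger error (edgeR adjusted p = 0.0906). Per2, the main negative regulator of the loop with CRY, had 13.7, 9.78 and 14.5 CPM at 21 months and 17.0, 15.8, 13.4 and 16.7 CPM at 3 months. The ranges overlapped through 3-month replicate 3 (log2 fold change -0.31 ± 0.16 SE, edgeR adjusted p = 0.233).

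Per1, a PER gene that also answers quickly to hormones and cyclic AMP, was the most scattered. It stood at 6.11, 7.26 and 2.74 CPM at 21 months and at 5.84, 2.75, 5.26 and 11.2 CPM at 3 months, a coefficient of variation of 43.8% and 56.8% at those ages. Its log2 fold change of -0.18 ± 0.51 SE has a 95% interval of -1.37 to 1.01 (edgeR adjusted p = 0.877), which includes a doubling in either direction. Its direction turned without 3-month replicate 4 (0.29). With the replicate number as a block it was 0.29 as well.

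**Figure D2:**
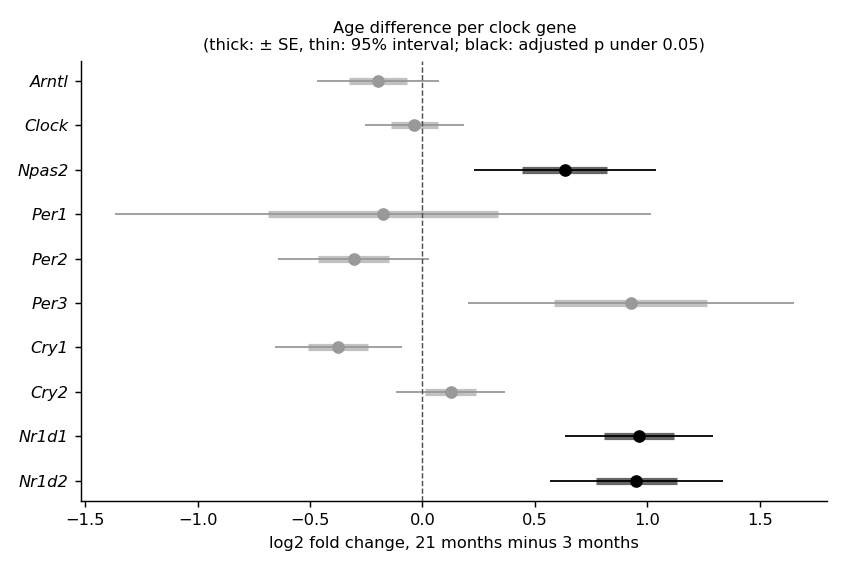
Log2 fold change of each clock gene, 21 months minus 3 months (x axis), with SE as thick and 95% interval as thin lines. Npas2, Nr1d1 and Nr1d2, in black, passed an adjusted p of 0.05; the intervals of Arntl, Clock, Per1, Per2 and Cry2 include 0.

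The activator and repressor arms did not move as opposed blocks. The repressor RNAs peak at different hours, as described above, so this grouping cannot test for a difference in hour. Among the 3 activators, 1 was called higher and 0 lower, with log2 fold changes from -0.20 to 0.63 and a median of -0.04. Among the 7 repressors, 2 were called higher and 0 lower, with log2 fold changes from -0.37 to 0.96 and a median of 0.12. Over all genes tested, 5.47% were called higher and 5.86% lower, with a median log2 fold change of -0.0015. Ratios between members within a library do not depend on library scaling. They are given next and carry no test.

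Nr1d1 was 1.77, 1.79 and 2.34 times as abundant as Arntl in 21-month replicates 1 to 3 on the TPM scale, and 0.822, 0.849, 0.971 and 0.916 times in 3-month replicates 1 to 4. Nr1d1 thus exceeded Arntl in every 21-month library and fell short of it in every 3-month library. Nr1d2 over Arntl was 0.505 to 0.616 at 21 months and 0.207 to 0.322 at 3 months, and Nr1d1 over Per2 was 4.62 to 6.18 and 1.99 to 2.82 at the same ages. Neither ratio overlapped between ages. Sums over the other repressors, which the same loop drives, overlapped between ages. The Per genes summed to 8.03 ± 0.35 TPM at 21 months and 8.22 ± 1.03 TPM at 3 months. The Cry genes summed to 30.7 ± 2.71 TPM and 31.7 ± 3.31 TPM at the same ages. These sums carry the upward shift of the TPM scale, a median log2 fold change of 0.11 over all genes tested (pseudocount 0.5).

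**Figure D3:**
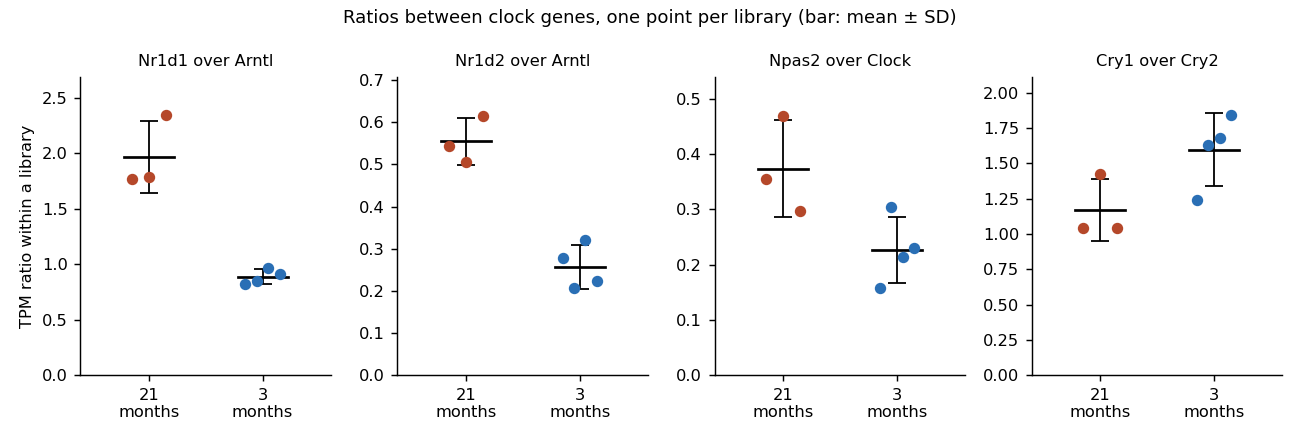
TPM ratios within each library (y axes, from 0) for 4 pairs of clock genes, at 21 and at 3 months, with mean and SD. Both REV-ERB ratios to Arntl are apart between the ages; Npas2 over Clock and Cry1 over Cry2 overlap.

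Nr1d1 changed place most in the order of levels on the TPM scale. At 21 months Nr1d1 led with 25.5 ± 6.11 TPM, above Cry1 (16.5 ± 2.35), Clock (15.7 ± 2.02), Cry2 (14.2 ± 1.51) and Arntl (12.8 ± 0.91), and its lowest library exceeded the highest Cry1 library. At 3 months Cry1 led with 19.5 ± 3.06 TPM, followed by Clock (14.7 ± 1.08), Arntl (13.5 ± 0.65), Cry2 (12.2 ± 0.75) and Nr1d1 (12.0 ± 1.35), and each of these 5 overlapped its neighbours among them. Below them at 21 months came Nr1d2 (7.15 ± 1.21 TPM), Npas2 (5.76 ± 0.99), Per2 (4.54 ± 0.86), Per1 (2.42 ± 1.07) and Per3 (1.07 ± 0.05). At 3 months the lower places went to Per2 (5.16 ± 0.38 TPM), Nr1d2 (3.48 ± 0.70), Npas2 (3.34 ± 0.91), Per1 (2.53 ± 1.27) and Per3 (0.53 ± 0.23). Nr1d2 overlapped Npas2 and Npas2 overlapped Per2 at 21 months, whereas Per2 stood clear above Nr1d2 at 3 months.

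The genes whose pattern over the 7 libraries was most like a member were ranked by the root mean square difference of centred log2 CPM among 8760 genes with a mean of at least 5 CPM. Nearest to Nr1d1 were Prkca (0.13 on the log2 scale), a protein kinase C gene, then Cyp2c55 (0.16) and Nr1d2 (0.18), so the sister receptor was the third nearest of all. Prkca averaged 8.44 ± 1.86 CPM at 21 months and 4.04 ± 0.28 CPM at 3 months. Nearest to Arntl were Ict1 (0.04), Habp2 (0.05) and Mrps18a (0.05). The distance takes in the difference between ages, so genes with a fold change like the member's rank near it. The log2 fold changes were 1.07 for Prkca, 0.83 for Cyp2c55 and 0.95 for Nr1d2, beside 0.96 for Nr1d1.

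Genes that act on the clock proteins or promoters were counted as a list. Of 26 such regulators 23 were tested, 2 rose and 1 fell, beside 11.3% of all genes called in either direction, with a median log2 fold change of 0.02. Another 1 had an unadjusted p under 0.05 by edgeR. Ppargc1a, a coactivator that works with ROR receptors on Arntl, had 5.94 ± 1.40 CPM at 21 months and 3.21 ± 0.60 CPM at 3 months (edgeR adjusted p = 0.0348), a rise whose call was lost in 11 of 17 alternatives. Sfpq, a PER-associated splicing factor, fell (log2 fold change -0.40, edgeR adjusted p = 0.0146), a call lost in 4 of 18 alternatives, among them the fit without 21-month replicate 3 (edgeR adjusted p = 0.0776). The activating receptor gene Rora, whose product competes with REV-ERB for the ROR element, did not pass (log2 fold change 0.22, edgeR adjusted p = 0.453), except without 21-month replicate 1 (0.43, edgeR adjusted p = 0.0381). Not passing either were the PER kinases Csnk1d and Csnk1e (-0.01 and 0.10, edgeR adjusted p = 0.971 and 0.855) and the E-box repressor Bhlhe40 (0.48, edgeR adjusted p = 0.354), which passed once replicates were paired by number (edgeR adjusted p = 0.0258).

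Of 16 clock output genes 15 were tested, 1 rose and 0 fell, beside 5.47% of all genes higher and 5.86% lower, with a median log2 fold change of 0.02. Another 3 had an unadjusted p under 0.05 by edgeR. The one that rose was Ccrn4l, which encodes the rhythmic protein nocturnin, at 48.4 ± 15.4 CPM at 21 months and 9.61 ± 1.94 CPM at 3 months. Dbp, a D-box factor that ARNTL drives strongly, stood at only 0.419 to 1.77 CPM at 21 months and 0.172 to 1.01 CPM at 3 months and did not pass the filter. Gm129 (now Ciart) and Bhlhe41, also driven by E-boxes, were likewise under the filter, at up to 0.591 and 0.838 CPM at 21 months and 0.405 and 1.10 CPM at 3 months. Nfil3, a ROR element target that opposes DBP, averaged 37.8 ± 2.04 CPM at 21 months and 47.8 ± 6.95 CPM at 3 months, a difference the size of that of Cry1 that also missed the threshold (log2 fold change -0.34, edgeR adjusted p = 0.0832). It passed without 3-month replicate 1 (-0.43, edgeR adjusted p = 0.0294). Tef and Hlf, the relatives of Dbp, did not pass (log2 fold change 0.16 and -0.24, edgeR adjusted p = 0.437 and 0.214), though Hlf passed without 21-month replicate 1 (-0.36, edgeR adjusted p = 0.0481).

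Other RNAs that follow the day were counted because the hour of sampling is not given. Of 9 genes linked to the body temperature rhythm, 2 heat shock genes fell and 0 rose, beside the 5.86% of all genes called lower, and 3 more had an unadjusted p under 0.05. The 2 that fell were Hspa1b at 28.7 ± 8.21 CPM at 21 months and 107 ± 36.6 CPM at 3 months (edgeR adjusted p = 0.0163), and Hsph1 at 47.4 ± 9.85 CPM and 74.8 ± 6.37 CPM (edgeR adjusted p = 0.00653). For Hspa1b, edgeR's adjusted p was 0.121 with the effective length shortfall as a covariate. It was 0.0605 when 21-month replicate 2 was left out and 0.0684 when 21-month replicate 3 was. The call was thus lost in 3 of 18 alternatives. Cirbp and Rbm3, which rise in the cold, were not called. Of 8 glucocorticoid-inducible genes, 0 passed the adjusted threshold by edgeR and 1 had an unadjusted p under 0.05. Over all 11251 genes tested, 1429 were higher at 21 months at that unadjusted threshold, called genes included. The part of either rhythm in the clock gene differences was not tested.

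**Figure D4:**
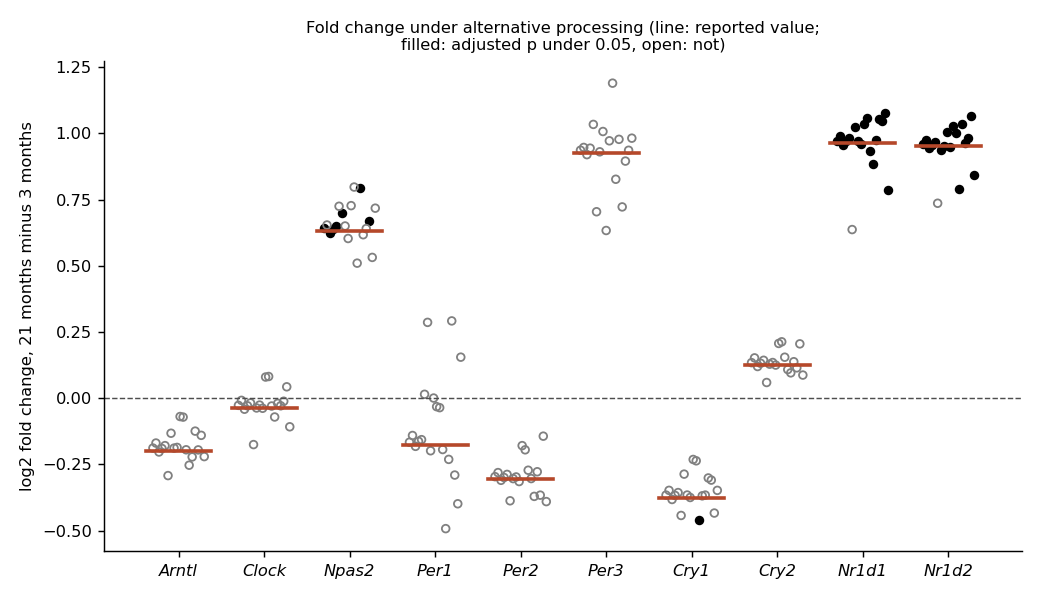
Log2 fold change of each clock gene (y axis) under 18 alternative ways of processing (17 for Per3), as points, filled where the adjusted p was under 0.05, with the reported value as a line. Nr1d1 and Nr1d2 are filled throughout except with the effective length shortfall as a covariate. Clock and Per1 fall on both sides of 0.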

How the data were processed

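RNA was profiled in 3 liver libraries at 21 months and 4 at 3 months. Per the labels' protocols, RNA was enriched on oligo-dT beads, made into strand-specific libraries and amplified by 10 PCR cycles; no molecular identifiers are named. TopHat, RSEM, edgeR and mm9 appear in the submitters' processing notes, without versions or roles. The authors deposited expected counts, TPM and FPKM per gene with gene lengths, per the file headers; the FPKM were deposited but not used here.

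Expected counts were rounded, kept by filterByExpr (minimum count 10, minimum total 15), TMM-scaled and fitted with the robust quasi-likelihood method of edgeR (threshold 0.05 after Benjamini-Hochberg adjustment), with R 4.3.3, edgeR 4.0.16, limma 3.58.1 and DESeq2 1.42.0. SE is the log2 fold change divided by the root of F. Deviations of same-numbered libraries from their age means correlated at 0.107, 0.174 and 0.104 over 11251 genes, while differently numbered libraries gave -0.222 to 0.159; since all 3 exceed 0.1, the replicate block was tried as a pairing; 3-month replicate 4 then adds nothing to the comparison. The members and lists were chosen with earlier results of these data known. Other genes named are fixed clock-related genes, up to 4 called members of each list, and the 3 genes most like Arntl and Nr1d1. Some genes that this rule names are counted in their list but not reported here. Alternatives were other scalings, filters, tools and the TPM scale, removal of the Rn45s and Lars2 rows, and the effective length shortfall as a covariate. The replicate block and leaving out each library were tried as well. Promoters came from RefSeq (GRCm38.p6). Figures used Python 3.11.15 and matplotlib 3.10.9.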

Additional observations from a re-analysis of the deposited data

Results flagged for a closer look

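Csnk1d was 59.7 CPM in 3-month replicate 1, below the 61.9 to 62.1 CPM of the other 3-month libraries, which lie close together. The gap relative to the range was 0.937, past a limit that chance exceeds in about 1 in 20 groups of 4. The 3-month values of 31 genes were examined in this way, and 1 passed.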

How the results depend on the processing

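The 10 clock genes were refitted under 18 alternatives. The number called was 3 as reported and 0 with the effective length shortfall as a covariate. It was 2 to 3 in each other alternative, with or without all libraries. The calls of Nr1d1 and Nr1d2 held in the other 17, with log2 fold changes of 0.79 to 1.08 and 0.79 to 1.07 without 1 library. Over all genes 1274 were called. The number was 332 with the shortfall covariate and 580 to 1642 without 1 library, lowest without 21-month replicate 3. Among regulators and outputs together 4 were called, 1 with that covariate, and 1 to 8 without 1 library. The replicate block changed the call of Bhlhe40 and of no other gene named; it called 1075 genes and 3 clock genes. With TPM values 73.8% of calls were higher, and 48.3% with scaled counts. The log2 fold changes whose sign turned belong to genes that were not called. Clock gave 0.080 and 0.082 on the TPM scale (pseudocounts 0.5 and 0.1) and -0.11 to 0.043 without 1 library. Per1 gave 0.015 with the shortfall covariate, 0.29 with the block, 0.00080 with limma voom and -0.49 to 0.29 without 1 library. Csnk1d gave 0.00013 with RLE, 0.020 with library-size scaling and 0.0096 after removal of the Rn45s and Lars2 rows. It gave 0.11 and 0.12 with TPM and -0.060 to 0.050 without 1 library. Rora gave -0.13 with the shortfall covariate. Without 1 library Csnk1e gave -0.013 to 0.28. The cause was not tested. Per3 is limited by its low counts.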
